A study of Mus musculus with 26 samples.

Results

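The 6 RNAs of mouse liver described here were chosen because their reads were far more frequent in RNA precipitated with hnRNPK than in total liver RNA. They are 6 of the 31469 numbered transcript clusters in the deposited tables, and each holds 1 isoform: uc008kht.1, uc008ruq.1, uc007czl.1, uc029rks.1, uc009gpy.1 and uc007tlz.1. Because they were selected on their level in immunoprecipitated (IP) RNA against total RNA, that difference is given below as a description, with no test. Most were short. Their annotated lengths were 305 nt for uc008kht.1, 409 nt for uc009gpy.1, 415 nt for uc029rks.1, 615 nt for uc007czl.1 and 690 nt for uc008ruq.1, against a median of 1591 nt over all clusters. The name "short" did not hold for uc007tlz.1, which was 2152 nt long. The files pair these identifiers with no gene symbol, so the clusters are described by identifier, length and level, and their sequence, position and function were not analysed here.

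The livers were from 3 mouse groups. The wild-type group was C57BL/6J on normal diet, the high-fat diet group was the same strain on high-fat diet, and the ob/ob group was B6.V-Lepob/J, a strain without leptin, on normal diet. From each group there were 2 cytoplasmic IPs, 2 nuclear IPs and 2 replicate numbers of total RNA, the latter with 2 libraries each. Control IgG beads gave 1 cytoplasmic and 1 nuclear library from mice labelled as mixed in strain and diet. The study set IP against total RNA to see which RNAs hnRNPK binds, in both compartments and in lean and obese mice. Nothing in the labels ties the replicates to separate animals, and the p-values below measure no more than the variation among these samples, possibly technical.

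hnRNPK is an RNA-binding protein with KH domains that favour cytosine-rich single-stranded RNA. It shuttles between nucleus and cytoplasm and takes part in transcription, splicing, mRNA stability and translation. In RNA immunoprecipitation the RNA that stays on antibody beads is sequenced, and RNA on beads with unspecific IgG measures what sticks without the specific antibody. Per the labels' protocols each extract had already been passed over IgG beads before it met the hnRNPK antibody. Total RNA was not the input of either extract, so IP against total RNA includes the fractionation.

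Total RNA libraries held 25597307 to 41731910 counts, cytoplasmic IPs 8834063 to 12068891 and nuclear IPs 5336060 to 10581089. The cytoplasmic IgG library held only 338469 counts and the nuclear one 3116786. Levels are CPM, counts relative to library size, scaled with TMM, which adjusts each library for its composition. The scaling factor was 0.649 for cytoplasmic and 0.603 for nuclear IP replicate 2 of high-fat diet, lower than in the other IPs, so results that rest on these samples move with the scaling.

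In total RNA the 6 clusters were at or near 0. Clusters uc008ruq.1 and uc007czl.1 had 0 counts in all 12 libraries, which together held 442560201 counts. Cluster uc008kht.1 had 1.26 estimated counts, all in 1 library of high-fat diet replicate 1, and uc007tlz.1 had 4.52, all in 1 library of wild-type replicate 1. Cluster uc029rks.1 had 11.1 counts over 7 of the 12 libraries, at most 2.45 in one, and uc009gpy.1 had 24.2 over 8 libraries. Of the libraries with uc009gpy.1, the highest were the pair of high-fat diet replicate 2, with 4.98 and 7.35 counts. Summed per replicate, uc009gpy.1 had 2.83 and 12.33 counts in high-fat diet, 3.27 and 4.30 in ob/ob and 1.48 and 0 in wild type. Differences between mouse groups in total RNA were not tested for the 6.

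In the beads the same RNAs were plentiful. Cluster uc008kht.1 had 711.9 and 1986 CPM in wild-type cytoplasmic IP, 874.0 and 1351 in high-fat diet and 1422 and 1649 in ob/ob. Its nuclear IPs held 374.4 and 622.7 CPM in wild type, 412.1 and 399.8 with high-fat diet and 643.8 and 621.9 in ob/ob. The wild-type cytoplasmic pair held both the lowest and the highest of the 6 cytoplasmic values, so the other 2 groups lay inside its range, while every nuclear value was below every cytoplasmic one. Per length this was by far the most abundant of the 6, with a median deposited TPM (a relative abundance that divides by length) of 6343 in cytoplasmic and 3320 in nuclear IP. Those medians ranked 18th and 21st among all clusters.

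**Figure D1:**
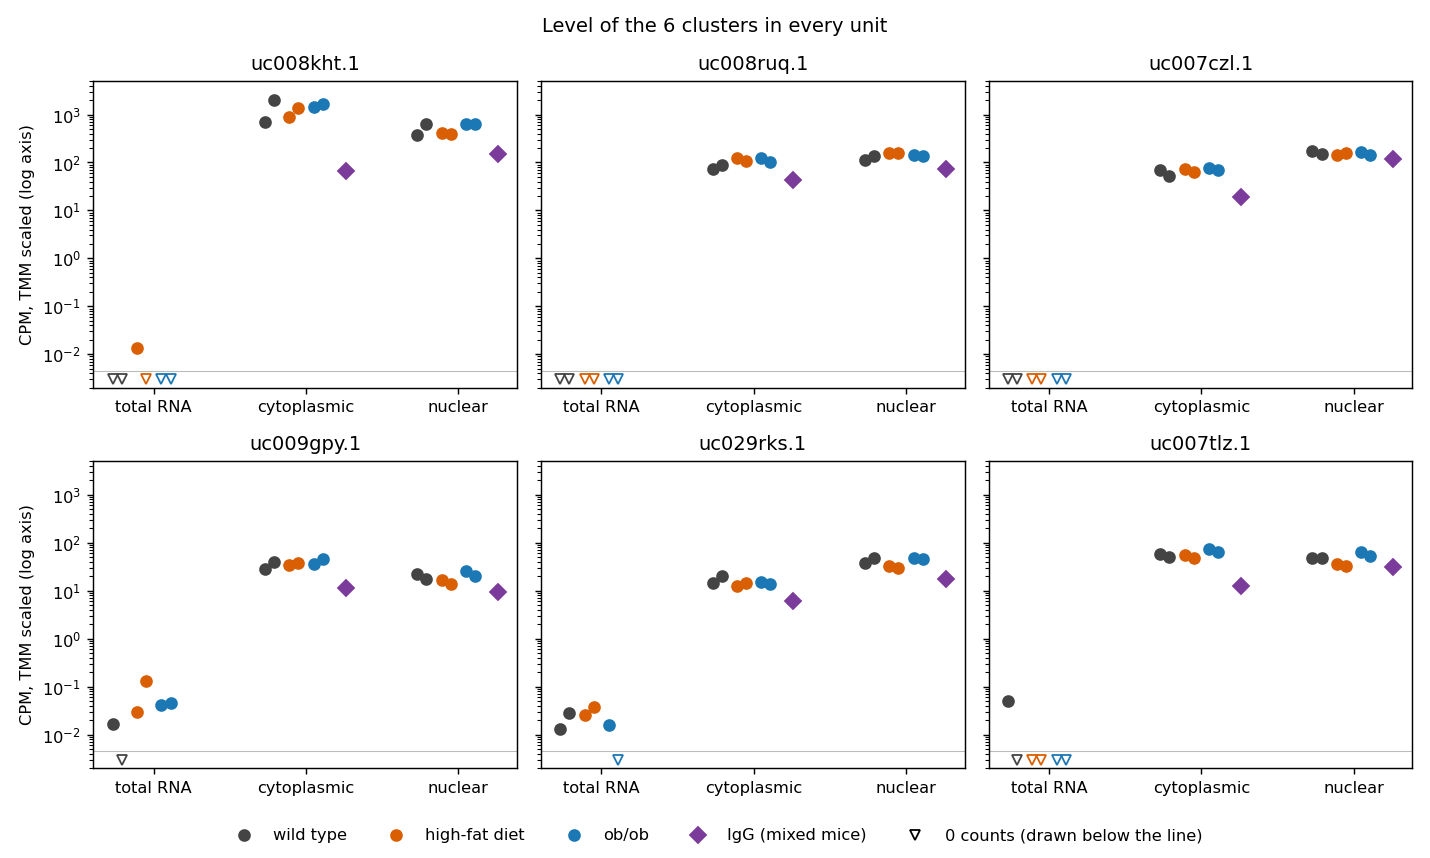
Level of each of the 6 clusters in CPM with TMM scaling (log axis) in total RNA and in the cytoplasmic and nuclear beads, with 1 circle per replicate coloured by mouse group, diamonds for IgG and open triangles below the line for 0 counts. In every panel the IP values lie orders of magnitude above total RNA, and the IgG diamonds lie much nearer to the IP values than to total RNA.

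Clusters uc008ruq.1 and uc007czl.1, with 0 counts in total RNA, were both higher in the nuclear than in the cytoplasmic beads. Cluster uc008ruq.1 had 73.99 and 88.23 CPM in wild-type, 121.9 and 108.3 with high-fat diet and 123.8 and 102.9 in ob/ob cytoplasmic IP. In nuclear IP it had 110.6 and 139.3, 156.9 and 157.2, and 144.5 and 137.0 CPM in the same order. The wild-type cytoplasmic values were the lowest 2 of the 12, and the ranges of the compartments overlapped. Cluster uc007czl.1 had 70.59 and 52.93 CPM in wild-type, 73.34 and 64.11 with high-fat diet and 77.97 and 68.42 in ob/ob cytoplasmic IP. Its nuclear values were 177.0 and 149.6, 141.2 and 160.2, and 164.6 and 142.5 CPM, all above the highest cytoplasmic value.

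The other 3 clusters had a few counts in total RNA and far more in every IP. Cluster uc007tlz.1 had a lowest, median and highest level of 47.2, 56.7 and 73.2 CPM in the 6 cytoplasmic IPs and 33.2, 47.9 and 63.4 in the 6 nuclear ones, which overlap. For uc009gpy.1 the values were 27.8, 36.9 and 45.7 in the cytoplasm and 13.9, 18.9 and 25.5 in the nucleus, with no overlap. Cluster uc029rks.1 went the opposite way, with 12.5, 14.3 and 20.6 in the cytoplasm and 30.2, 41.8 and 49.0 in the nucleus, also without overlap. Together the 6 clusters took a median of 0.132% of all counts in cytoplasmic and 0.0890% in nuclear IP, most of it uc008kht.1.

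Set against total RNA over all mouse groups and by library size, the differences spanned orders of magnitude. Cluster uc008kht.1 had 67558 counts in the 6 cytoplasmic IPs against 1.26 in total RNA, which was rounded down to 1. This gave a ratio of 489798 with a counting interval (95%, exact binomial) of 87906 to 19346290, and the rounding raised it. In the nuclear IPs its 21331 counts gave 213261 (38272 to 8423763). A cluster with 0 counts in total RNA was given a floor of 3 counts, taken over its 12 libraries together. With this floor uc008ruq.1 was at least 12709-fold higher in cytoplasmic and at least 18856-fold higher in nuclear IP, and uc007czl.1 at least 8396-fold and at least 21835-fold higher. The same floor would put uc008kht.1 at 163266-fold in cytoplasmic and 71089-fold in nuclear IP. Cluster uc007tlz.1 had ratios of 4356 (1864 to 13425) and 4025 (1722 to 12410) with its 4.52 counts rounded to 5, and 4818 and 4452 without rounding. The ratios of uc009gpy.1, 565 (378.5 to 884) for cytoplasmic and 347 (232 to 545) for nuclear IP, and of uc029rks.1, 503.5 (279.8 to 1013) and 1571 (876 to 3152), were the smallest of the 6. Single total RNA replicates carried some of these values. Without high-fat diet replicate 1, uc008kht.1 was at least 136180-fold higher in cytoplasmic and at least 59294-fold higher in nuclear IP, and without wild-type replicate 1 uc007tlz.1 was at least 6045-fold and at least 5586-fold higher. Without high-fat diet replicate 2 the ratios of uc009gpy.1 were 935 and 574. Intervals and floors cover counting error only. They take the estimated counts as whole reads and do not cover the division of reads by the authors' counting, described below.

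With every total RNA count below 3 raised to that floor, uc008kht.1 had the highest ratio of all 8376 clusters ranked in the cytoplasm and of all 8482 in the nucleus. Cluster uc008ruq.1 ranked 2nd and 3rd, uc007czl.1 5th and 2nd, and uc007tlz.1 9th in both. Clusters uc009gpy.1 and uc029rks.1 ranked 27th and 28th in the cytoplasm and 30th and 14th in the nucleus. The ranks between were held by clusters not described here, such as uc029tgs.1 and uc008txt.2, both also at 0 counts in total RNA and named after their values were seen. By limits also set after the data were seen, 25 clusters had at most 3 counts in total RNA and a mean over 5 CPM in an IP. They included uc008kht.1, uc008ruq.1 and uc007czl.1. Of the 25, 23 were shorter than 700 nt, all had a single isoform, and 24 also had counts in IgG. The share of all clusters with each of these traits was not counted, so they are a description only.

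The IgG beads held all 6 clusters too, far above total RNA. In cytoplasmic IgG there were 28.99 counts of uc008kht.1, 19.3 of uc008ruq.1, 8.22 of uc007czl.1, 5.56 of uc007tlz.1, 4.90 of uc009gpy.1 and 2.71 of uc029rks.1. The deeper nuclear IgG library held 633.8 counts of uc008kht.1, 491.9 of uc007czl.1, 307.4 of uc008ruq.1, 130.3 of uc007tlz.1, 73.4 of uc029rks.1 and 39.0 of uc009gpy.1. Against total RNA by library size, uc007czl.1 was at least 3487-fold higher in cytoplasmic IgG and at least 23287-fold higher in nuclear IgG, the latter above its bound in nuclear IP. Cluster uc008ruq.1 was at least 8281-fold and at least 14531-fold higher in IgG. For uc008kht.1 the ratios of IgG to total RNA were 37919 (6287 to 1548694) and 90023 (16099 to 3561266), again with its total RNA count rounded down. The smallest such ratio in nuclear IgG was that of uc009gpy.1, at 231 (135 to 401). The order of nuclear IgG and nuclear IP for uc007czl.1 turned with the scaling. With TMM-scaled library sizes its bounds were at least 21582-fold in nuclear IgG and at least 28597-fold in nuclear IP.

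By their values per length the 6 had the same order in IP and IgG of each compartment, though counts in cytoplasmic IgG were few. In the cytoplasm the median deposited TPM over the 6 IPs ran in the order uc008kht.1 (6343), uc008ruq.1 (174), uc007czl.1 (151), uc009gpy.1 (123), uc029rks.1 (50.1) and uc007tlz.1 (33.3). Cytoplasmic IgG had 597.5, 144, 70.4, 68.7, 37.3 and 12.1 TPM in that order. The clusters below uc008kht.1 had only 2.71 (uc029rks.1) to 19.3 counts (uc008ruq.1) there, so their order in cytoplasmic IgG is not settled. The values of uc007czl.1 and uc009gpy.1, at 8.22 and 4.90 counts, cannot be ranked. In the nucleus the IP medians were 3320 for uc008kht.1, 436 for uc007czl.1, 347 for uc008ruq.1, 196 for uc029rks.1, 89.3 for uc009gpy.1 and 38.9 for uc007tlz.1. Nuclear IgG had 1410, 483, 266, 113, 61.0 and 33.9 TPM in the same order, and its value for uc007czl.1 was above the IP median. Over the IP libraries some neighbours in these orders overlapped. In the cytoplasm these were uc008ruq.1 with uc007czl.1, uc007czl.1 with uc009gpy.1, and uc029rks.1 with uc007tlz.1. In the nucleus they were uc007czl.1 with uc008ruq.1, uc029rks.1 with uc009gpy.1, and uc009gpy.1 with uc007tlz.1.

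**Figure D2:**
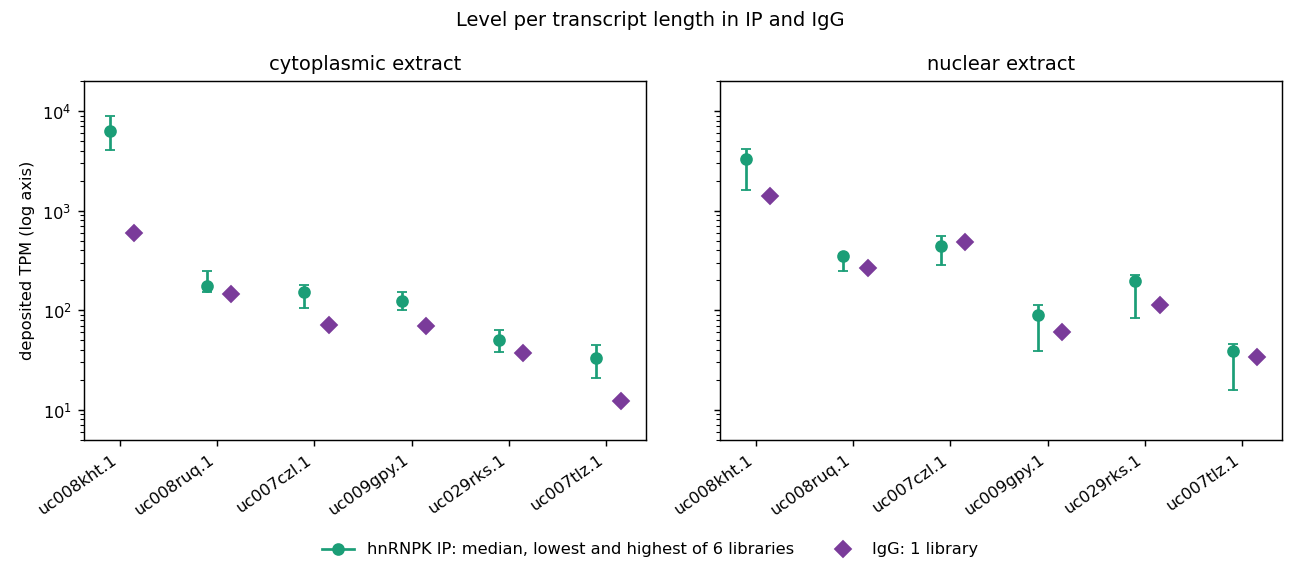
Deposited TPM (log axis) of the 6 clusters in the cytoplasmic and nuclear extracts, with circles and bars for the median, lowest and highest of 6 IP libraries and diamonds for the single IgG library. Cluster uc008kht.1 stands highest in both kinds of bead, at 6343 against 597.5 TPM in the cytoplasm, while nuclear IgG of uc007czl.1 (483) lies above its IP median (436).

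How far the IP exceeded IgG depended on the cluster, the compartment and the scaling. With TMM scaling the IP was above IgG in all 6 samples of both compartments for 6 of 6 clusters. The same held for 44.7% of the 13516 clusters tested in the cytoplasm and 23.2% in the nucleus, and the clusters were chosen on these IP values. Cluster uc008kht.1 stood out in size: its cytoplasmic IP was 20.3-fold above IgG (counting interval 14.1 to 30.3), with single samples from 10.8-fold to 30.2-fold. Its nuclear IP was 3.35-fold above IgG (3.09 to 3.63). The other 5 were 2.22-fold (uc029rks.1) to 4.36-fold (uc007tlz.1) above IgG in the cytoplasm, where the interval of uc029rks.1 reached down to 0.756. In the nucleus they were 1.33-fold (uc007czl.1) to 2.36-fold (uc029rks.1) above IgG.

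Scaled by library size alone, the IP still exceeded IgG in all 6 cytoplasmic samples for 6 of 6 clusters (29.1% of all clusters tested). The ratio of uc008kht.1 was then 12.9 (8.99 to 19.3), with samples from 6.95-fold. The counting intervals of 3 clusters reached below 1 there, at 0.481 to 6.86 for uc029rks.1, 0.887 to 6.39 for uc009gpy.1 and 0.982 to 2.55 for uc008ruq.1. In the nucleus this remained for 1 of 6, uc008kht.1 (3.71% of all clusters), at 2.37-fold (2.19 to 2.57). The nuclear ratio of uc007czl.1 turned to 0.938 (0.855 to 1.03), with 2 of 6 samples above IgG, and that of uc007tlz.1 was 1.09 (0.913 to 1.31), with 4 of 6 above. There was 1 IgG library per compartment, so the spread between IgG libraries was not measured.

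**Figure D3:**
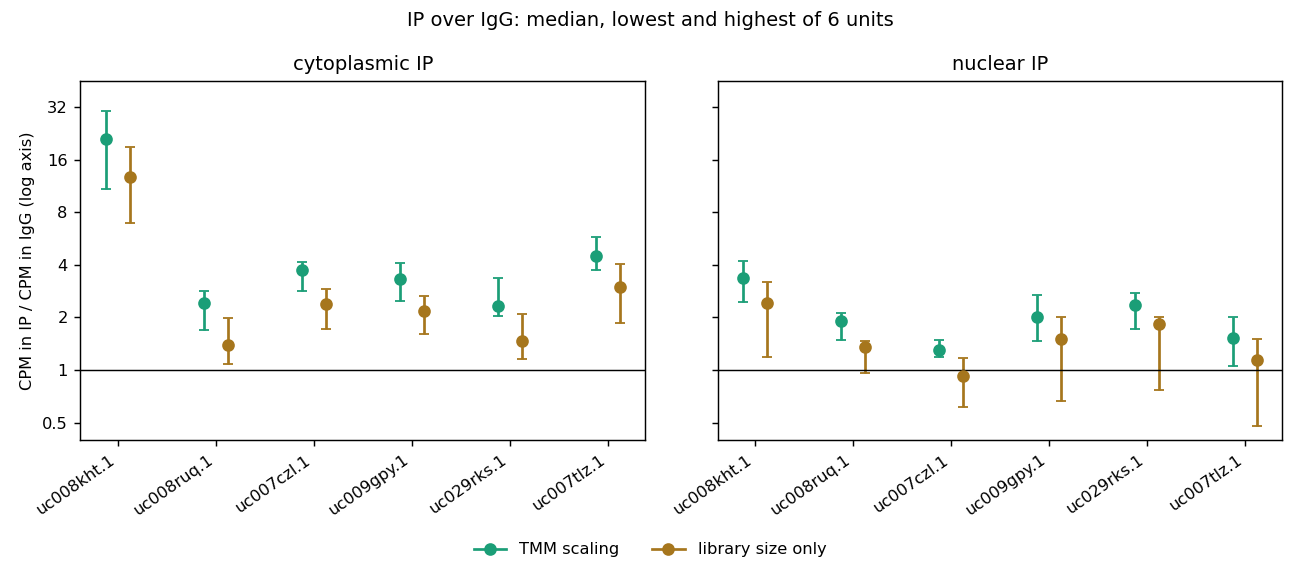
Ratio of CPM in IP to CPM in IgG (log axis) for the 6 clusters in each compartment, with points and bars for the median, lowest and highest of 6 IP samples under TMM scaling and under library size only. In the cytoplasm uc008kht.1 stands apart with samples from 10.8-fold to 30.2-fold, and in the nucleus all bars except those of uc008kht.1 reach below 1 by library size.

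The nuclear and cytoplasmic IPs were compared to ask in which compartment each RNA was more frequent on hnRNPK beads. The edgeR quasi-likelihood test, over the mean of the 3 mouse groups, called 6 of 6 clusters at an adjusted p under 0.05, 3 higher and 3 lower in the nucleus. Such calls were common, at 64.6% of all 13516 clusters tested, and the contrast shares its IP libraries with the choice of the 6. The median log2 difference was 0.07 over the 6 and -0.04 over all clusters tested.

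Cluster uc029rks.1 rose 1.41 ± 0.12 log2 units from cytoplasmic to nuclear IP (SE, edgeR adjusted p = 1.09e-07), from a mean of 15.1 ± 2.9 CPM (SD, n = 6) to 40.5 ± 8.0. Cluster uc007czl.1 was higher by 1.20 ± 0.10 (edgeR adjusted p = 8.36e-07), from 67.9 ± 8.7 to 156 ± 14 CPM. A smaller rise of 0.46 ± 0.09 was seen for uc008ruq.1 (edgeR adjusted p = 0.00101). In the direction of the cytoplasm, uc008kht.1 was lower in the nuclear IP, with a log2 difference of -1.39 ± 0.23 (edgeR adjusted p = 0.000142), and uc009gpy.1 had -0.94 ± 0.15 (edgeR adjusted p = 8.09e-05). For uc007tlz.1 the difference was small, -0.32 ± 0.13 (edgeR adjusted p = 0.0477). It missed the threshold by library size only (-0.18, adjusted p = 0.424) and with DESeq2's size factors in edgeR (0.0774). Of the 12 fits that left out 1 IP sample, it was called only without ob/ob nuclear replicate 1 (edgeR adjusted p = 0.0441) or without wild-type cytoplasmic replicate 2 (0.0383), and the highest was 0.158.

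For 4 of the 6, uc008kht.1, uc007czl.1, uc009gpy.1 and uc029rks.1, the nuclear and cytoplasmic IP samples did not overlap, as for 33.1% of all clusters tested. Within each mouse group the 2 nuclear samples lay on one side of the 2 cytoplasmic samples for every one of the 6 clusters. How many of all clusters did so was not counted, so this is a description only. The log2 ratio of group means for uc008kht.1 was -1.44 in wild type, -1.45 in high-fat diet and -1.28 in ob/ob. For uc007czl.1 it was 1.40, 1.13 and 1.07, and for uc029rks.1 it was 1.32, 1.23 and 1.68, in the same order. The smaller difference of uc008ruq.1 was 0.62, 0.45 and 0.31. The ratios of uc009gpy.1 were -0.76, -1.21 and -0.86, and those of uc007tlz.1 were -0.18, -0.56 and -0.22.

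The IgG beads did not share this division in every case. Nuclear over cytoplasmic IgG had a log2 ratio of 1.21 for uc008kht.1 (counting interval 0.68 to 1.81), opposite in sign to its IP. It was also opposite for uc007tlz.1, at 1.20 (0.04 to 2.67). The sign was that of the IP for uc007czl.1 at 2.71 (1.72 to 3.93), uc008ruq.1 at 0.78 (0.11 to 1.53), uc029rks.1 at 1.37 (-0.24 to 3.68) and uc009gpy.1 at -0.27 (-1.62 to 1.43). The last 2 intervals span 0, and with 1 IgG library per compartment the difference between IP and IgG was not tested.

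**Figure D4:**
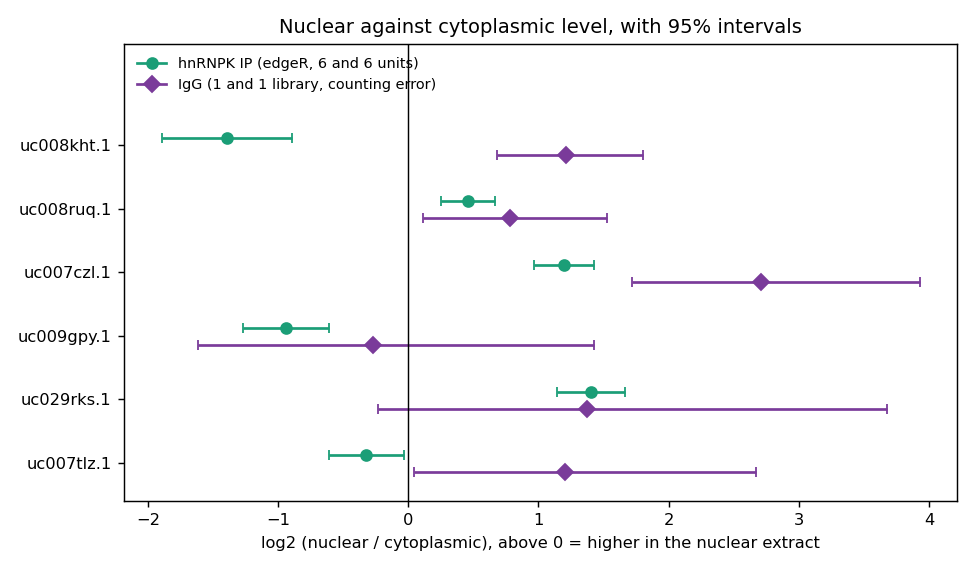
Log2 ratio of nuclear to cytoplasmic level for the 6 clusters, with green circles for IP (edgeR estimate and 95% interval, 6 against 6 samples) and purple diamonds for IgG (1 library each, interval of counting error). Cluster uc008kht.1 lies at -1.39 in IP and at 1.21 in IgG, while uc007czl.1, uc008ruq.1 and uc029rks.1 lie above 0 in both.

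Between mouse groups, edgeR called 0 of the 6 clusters in any comparison within a compartment. In cytoplasmic IP the share of all tested clusters called was 12.8% for ob/ob against wild type, 1.85% with high-fat diet against wild type and 3.57% for ob/ob against high-fat diet. In nuclear IP it was 13.7%, 5.37% and 3% in the same order. In cytoplasmic IP of ob/ob against wild type 1 of the 6 had an unadjusted p under 0.05, uc008ruq.1, and in nuclear IP of ob/ob against wild type none did. Of all 13516 clusters tested, 3840 had such a p in the cytoplasmic and 4105 in the nuclear comparison. On simulated counts for cytoplasmic ob/ob against wild type, the same fit called 2.99% of clusters changed 1.5-fold. It called 43.8% of those changed 2-fold and 63.1% of those changed 4-fold. There 67, 67 and 66 clusters were changed by these sizes, and the shares are over the 67, 64 and 65 of them that were tested. That step tested 13323 clusters, while edgeR called 1726 clusters in the data. The changed clusters were drawn at random from all clusters tested and not matched to the 6 in level, so these rates do not apply to the 6. The share of such changes missed in the data was not tested.

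Cluster uc008kht.1 had the widest intervals. Its log2 difference in cytoplasmic IP was 0.14 for ob/ob against wild type (95% interval -0.71 to 0.98) and -0.32 with high-fat diet against wild type (-1.16 to 0.53). The sign of the first turned without wild-type cytoplasmic replicate 1 (-0.42) and that of the second without replicate 2 (0.59), the samples with the lowest and highest level. In nuclear IP its difference was 0.30 for ob/ob against wild type (-0.55 to 1.15) and 0.64 for ob/ob against high-fat diet (-0.22 to 1.49). High-fat diet against wild type gave -0.34 there (-1.19 to 0.51), or 0.07 without wild-type nuclear replicate 2.

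The differences nearest to a call concerned 3 clusters. In cytoplasmic IP, uc008ruq.1 was 0.43 ± 0.16 above wild type in ob/ob (edgeR adjusted p = 0.107, DESeq2 0.0458) and 0.47 ± 0.16 above it in high-fat diet (edgeR adjusted p = 0.149, DESeq2 0.0548). Both wild-type samples lay below the 4 samples of the other groups, and the 2 comparisons share those wild-type samples. The share of all clusters with such an order was not counted. In nuclear IP, uc007tlz.1 had 63.40 and 54.02 CPM in ob/ob, 48.08 and 47.74 in wild type, and with high-fat diet 36.39 and 33.18. The ob/ob against high-fat diet difference was 0.74 ± 0.24 (edgeR adjusted p = 0.108), which DESeq2 called (0.74, adjusted p = 0.00105). Nuclear uc029rks.1 had 47.58 and 45.33 CPM in ob/ob, 38.24 and 49.03 in wild type, and with high-fat diet 32.41 and 30.20. It was -0.52 ± 0.21 in high-fat diet against wild type (edgeR adjusted p = 0.147) and 0.56 ± 0.21 in ob/ob against high-fat diet (edgeR adjusted p = 0.152), comparisons that share the high-fat diet samples.

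By library size only, edgeR called these nuclear differences. The values were 1.20 for uc007tlz.1 (adjusted p = 0.0333) and 1.03 for uc029rks.1 (adjusted p = 0.0262) in ob/ob against high-fat diet, and -0.90 for uc029rks.1 in high-fat diet against wild type (adjusted p = 0.0382). That scaling moved the median of all clusters to 0.49 in the first comparison and to -0.45 in the second. Of the clusters called in ob/ob against high-fat diet it put 1317 higher and 70 lower, in place of 159 and 247.

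Whether the nuclear over cytoplasmic ratio changed with the mouse group was tested as a difference of differences. Against wild type, edgeR called 0 of the 6 clusters and 0% of all clusters tested, whether in ob/ob or with high-fat diet. Before adjustment 1418 clusters (ob/ob) and 1840 clusters (high-fat diet) had a p under 0.05, none of the 6 among them, and DESeq2 called 137 and 258 clusters. The estimates of uc008kht.1 were 0.16 (95% interval -1.03 to 1.36) and -0.02 (-1.22 to 1.18), and the largest of the 6 in size was -0.43 for uc009gpy.1 in high-fat diet (-1.25 to 0.38).

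**Figure D5:**
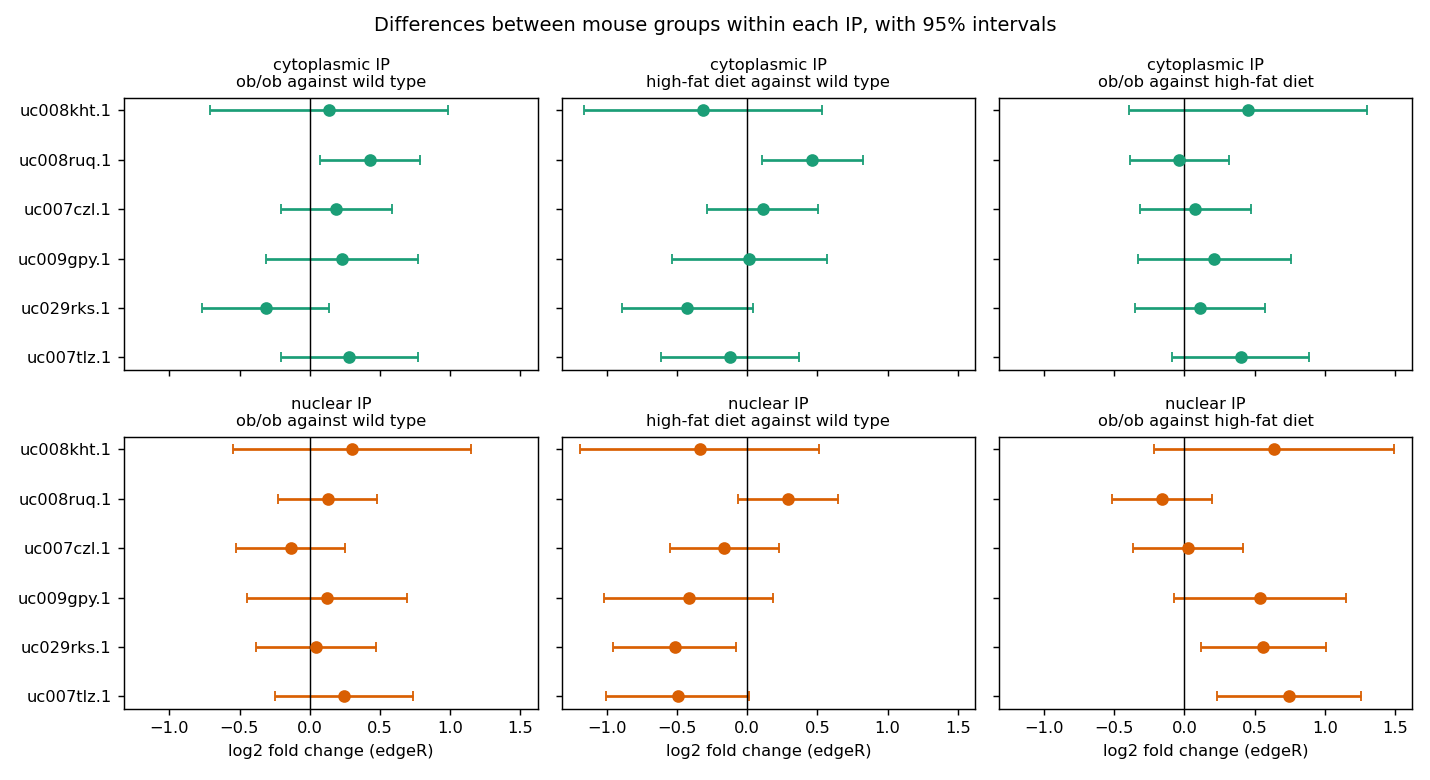
Log2 fold change (edgeR) with its 95% interval for the 6 clusters in the 3 comparisons of mouse groups, in cytoplasmic IP (upper row) and nuclear IP (lower row). Before adjustment over all clusters, intervals of uc008ruq.1 in cytoplasm exclude 0 in both comparisons with wild type. In the nucleus those of uc029rks.1 do so in both comparisons with high-fat diet, and that of uc007tlz.1 in ob/ob against high-fat diet. Intervals of uc008kht.1 are the widest.

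Over the 12 IP samples the 6 clusters divided by compartment. Pearson's r of log2 CPM was above 0 in 6 of 15 pairs, all of them within uc007czl.1, uc029rks.1 and uc008ruq.1 (0.605 to 0.880) or within uc008kht.1, uc009gpy.1 and uc007tlz.1 (0.578 to 0.902). Within 1 compartment 9 of 15 pairs were above 0 in each, and uc007czl.1 with uc029rks.1 had -0.764 in the cytoplasm and -0.032 in the nucleus. The 3 pairs within uc008kht.1, uc009gpy.1 and uc007tlz.1 stayed above 0 in the nucleus (0.422 to 0.911), while in the cytoplasm they had 0.889, 0.082 and -0.026. These coefficients rest on samples that share libraries, depth and scaling, and are a description only.

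Among 8941 clusters with a mean of at least 5 CPM in the IPs, the one most like each of the 6 over the 12 IP samples had an r of 0.93 to 0.99, and all of these were present in total RNA. The profile nearest to uc008kht.1 was uc009jsh.2 (r = 0.98), at 7.28 CPM in total RNA. That nearest to uc007czl.1 was uc007ozj.2 (r = 0.99), with 49.9 CPM in cytoplasmic IP, 122 in nuclear IP and 72.4 in total RNA. For uc008ruq.1 it was uc009kyr.2 (0.96), for uc029rks.1 uc008mcz.1 (0.98), for uc009gpy.1 uc009rjn.1 (0.98) and for uc007tlz.1 uc007ysb.1 (0.93).

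Reads of the 6 clusters were divided by the authors' counting. A cluster of 1 isoform whose reads are assigned to it alone has a whole estimated count, but 0 of 14 bead values were whole (within 0.005) for each of the 6. Over clusters of 1 isoform with at least 50 counts, 64.8% of 33475 values were whole. The counts of the 6 thus held fractions of reads, and what shared those reads was not analysed here. The neighbouring cluster numbers did not show the pattern. Of the 12 clusters numbered 1 below or above the 6, 10 had total RNA levels of 3.42 to 125.1 CPM. The other 2 had 0 counts in total RNA and in every IP. That above uc008kht.1 was only 48 nt long, so its 0 counts carry little information, and that above uc008ruq.1 was 2009 nt long.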

How the data were processed

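The authors deposited 1 table per library with expected counts and TPM per transcript in RSEM's isoform layout, per the file headers. RSEM 1.2.8, TopHat2 2.0.10, Bowtie2 2.1.0, bcl2fastq, SAMtools and build mm10 are named without role or order, per the submitters' processing notes. The annotation and the strand setting are not given in the sources used here. Transcript lengths are in nucleotides, per the file headers.

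Expected counts of a cluster's isoforms were added and rounded to whole numbers. Each pair of total RNA libraries with one replicate number was added to 1 unit, since the titles give them one number, although the labels do not say that they are runs of the same RNA. This gave 18 units, 2 per group. The IgG libraries, whose molecule label reads hnRNPK-bound while their titles say IgG, were taken by title and entered no edgeR fit. Tests between IPs were quasi-likelihood tests in edgeR 4.0.16 (R 4.3.3, limma 3.58.1) over all 18 units with 1 mean per group, TMM scaling, filterByExpr and Benjamini-Hochberg adjustment over all 13516 clusters, with a threshold of 0.05. All 6 described clusters passed that filter. The standard error was derived from the F value, as the size of the log2 fold change over its root. Log2 CPM for correlations had a prior count of 1. Ratios of summed counts carry exact 95% binomial intervals, and IgG counts exact Poisson ones, both from counts rounded to whole numbers. Deposited TPM values, which keep no depth, were used only to set the clusters side by side per length. The fit was tested on simulated counts over 13323 clusters for cytoplasmic ob/ob against wild type, with 1 false call. Alternatives were library size only, DESeq2's size factors, no low-count filter, DESeq2 1.42.0, the 12 IP units alone, the replicate block and leaving out each IP unit.

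The 6 clusters and the tests were chosen with earlier results of these data known. The clusters named are these 6, the one most like each by Pearson's r over the IP units, and, chosen after their values were seen, uc029tgs.1 and uc008txt.2. The neighbours of the 6 by cluster number are given as a range. The planned gene and cell type marker lists need symbols and were not used here.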

Additional observations from a re-analysis of the deposited data

Results flagged for a closer look

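With 4 libraries of total RNA per mouse group, 5 of 8 sets of a cluster's counts that held any spread had 1 library apart from the rest by Dixon's limit. Chance exceeds that limit in about 1 of 20 groups of continuous values, but this rate does not apply to counts so sparse: in 4 of the 5 sets the other 3 libraries were all at 0, which passes the limit by construction. The 4 libraries are also pairs with the same replicate number. Cluster uc029rks.1 had 1.25 counts in 1 ob/ob library and 0 in the other 3, and in wild type 1 library had 0 counts while the others had 1.19 to 1.27. Cluster uc009gpy.1 had 1.48 counts in 1 wild-type library only. Cluster uc007tlz.1 had 4.52 counts in 1 wild-type library only, which are all its total RNA counts. Cluster uc008kht.1 had 1.26 counts in 1 high-fat diet library only, and its ratios of IP to total RNA rest on that value.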

How the results depend on the processing

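Over 54 estimates (6 clusters in 9 comparisons) and 636 alternative values, the sign turned in 42, none of them a called estimate. The calls of nuclear against cytoplasmic IP held under every alternative run for 5 clusters, and uc007tlz.1 is the exception given above. The replicate block gave uc008kht.1 a nuclear against cytoplasmic difference of -1.35 and changed no call of the 6. Its term is common to all mouse groups, so a pairing of extracts within a mouse group was not tested. Deviations of same-numbered cytoplasmic and nuclear samples correlated at 0.345 in wild type, -0.042 in high-fat diet and 0.262 in ob/ob, and with total RNA at 0.293 to 0.407 in wild type and ob/ob but 0.094 and -0.121 in high-fat diet, so a shared number was not taken as a pairing. The counts of all clusters called moved with the settings, and the cause was not tested. For ob/ob against wild type, DESeq2 called 2469 of 20078 clusters in cytoplasmic IP and 2560 in nuclear IP. In cytoplasmic IP, ob/ob against wild type gave 614 by library size, 943 on the 12 IP units and 376 to 1244 without 1 replicate, and DESeq2 called 1 of the 6 clusters. High-fat diet against wild type gave 23, 22 and 10 to 378, and 1103 with DESeq2. Ob/ob against high-fat diet gave 249, 208 and 63 to 426, and 1169 with DESeq2. In nuclear IP the first comparison gave 590, 1006 and 401 to 1698. The second gave 1668 (1 of the 6 clusters), 189 and 66 to 338, and 1467 with DESeq2. The third gave 1387 (2 of the 6), 182 and 71 to 221, and 953 with DESeq2 (1 of the 6). The difference of nuclear over cytoplasmic IP gave 6 clusters without the low-count filter, 137 with DESeq2 and 0 to 14 without 1 replicate for ob/ob, and 258 and 0 to 26 for high-fat diet. Without 1 replicate, uc008kht.1 ranged in cytoplasmic IP from -0.42 to 1.05 for ob/ob and from -0.87 to 0.59 for high-fat diet against wild type, and in nuclear IP from -0.61 to 0.071 for the latter. Its difference of differences ranged from -0.75 to 0.72 for ob/ob and from -0.93 to 0.53 for high-fat diet, where it was 0.011 with DESeq2's size factors and 0.006 with DESeq2. The nuclear IP to IgG ratio of uc007czl.1 was 0.938 by library size. Counting error limits cytoplasmic IgG, with 2.71 to 28.99 counts of each cluster, and total RNA, with 0 to 24.2.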
